A study of Sus scrofa with 27 samples.

Results

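The genes described here encode the contractile apparatus of smooth muscle and its transcriptional coactivator, and they were followed in pig lungs kept on ex vivo lung perfusion (EVLP), a circuit that ventilates and perfuses a donor lung outside the body. They were chosen by symbol: ACTA2, ACTG2, MYH11, MYLK, CNN1, TAGLN, LMOD1, DES, SYNPO2 and MYOCD. All 10 were found among the 31908 genes of the count table, with 1 row each. Every member had at least 10 counts in each of the 27 libraries, except MYOCD with 8 counts in 1 of them. All 10 also passed the filter on low counts in every comparison.

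The lungs came from 9 Large-White pigs under a model of donation after the heart had stopped, and all of them went through a period of cold ischemia before perfusion by the Toronto protocol. In both groups the circuit held Steen solution with methylprednisolone, cefuroxime and heparin. In the Gold Standard group (GS, pigs 9, 17, 44, 55 and 77) part of the Steen solution was exchanged at regular intervals. In the Pediatric Dialysis group (PD, pigs 2, 3, 4 and 5) the perfusate was instead cleared by continuous hemodialysis through a pediatric membrane. Biopsies were taken at 0h (after cold ischemia and before perfusion), at 6h and at 12h, so that each pig gave 3 libraries and stood as its own control. The lungs were isolated organs without a recipient, the age and sex of the pigs were not given in the sources used here, and the PD lungs had also served an earlier study whereas the GS lungs had not.

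Smooth muscle cells of the airway and vessel walls shorten when myosin heavy chain pulls on actin filaments. The pull is switched on when calcium and calmodulin activate myosin light chain kinase, and the force is passed on through dense bodies and a desmin network. Most genes of this apparatus are read under serum response factor, which binds a DNA element called the CArG box, and its coactivator myocardin, which is largely restricted to muscle. In lung the same genes also appear, at lower levels, in pericytes and myofibroblasts.

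The total of counts on genes was 26335584 to 67522703 per library in GS (15 libraries) and 14650700 to 21820935 in PD (12 libraries). No PD library was as deep as any GS library, so depth and group cannot be told apart. The biopsies were preserved and extracted by either of 2 routes, and the labels do not say which sample took which, so the part of the route in any value was not tested. Levels are given as CPM, a library's counts scaled to its total times its factor from TMM scaling. This factor ran from 0.633 in PD pig 2 at 12h to 1.33 in GS pig 17 at 0h. Scaling to the total alone would thus give lower levels in PD pig 2 at 12h and higher levels in GS pig 17 at 0h. Markers of other muscle were low. For skeletal muscle 6 of 10 genes were in the table, their summed level was 1.31 to 20.8 CPM, and MYOD1 was at 0 in 24 libraries. Of 10 heart muscle genes 7 were in the table, with a sum of 24.7 to 75.0 CPM, of which RYR2 made up 13.6 to 67.2. The other markers of smooth muscle that are not members (10 of 12 in the table, among them MYL9, TPM2, CALD1 and SMTN) were detected in every library, with sums of 627 to 3048 CPM. Libraries that stood apart were PD pig 4 at 0h, the lowest of its group in all members, and PD pig 2 at 12h, the lowest of its group in MYLK, SYNPO2 and MYOCD and the highest in the other 7. The 12h library of PD pig 2 had the fewest counts (14650700) and the fewest genes with a count (18979) of all libraries. Its smooth muscle markers that are not members summed to 3048 CPM, against 729 to 910 in the other PD pigs at 12h. TPM2 alone made up 2120 CPM of that sum, so it does not show that the list was high as a whole. Summed levels of markers of other cells also moved in the same libraries. Those of alveolar epithelium (8 of 10 in the table) summed to 77778 CPM in pig 4 at 0h, against 27018 to 47097 in the other PD pigs, and to 91235 CPM in pig 2 at 12h, against 18681 to 27863. Those of airway epithelium and cilia (9 of 11 in the table) summed to 2015 CPM in pig 4 at 0h, against 1042 to 1650, and to 6752 CPM in pig 2 at 12h, against 711 to 2225. Single genes can carry these sums. Over all libraries SFTPC ran from 1687 to 85010 CPM, with no other gene of the alveolar list above 7939. In the airway list SCGB3A2 ran from 22.0 to 4424 CPM. The sums thus do not show that the lists moved as a whole. The part of these cells in the PD values was not tested. Changes in PD that rest on these 2 libraries are also given with both left out, as values with no test. Calls from that fit are counted only where the dependence on processing is described. Both libraries were singled out by the members' own levels. Leaving out a low start and a high end thus lowers the change from 0h to 12h of most members by construction. PD pig 3 at 6h also stood apart, as the highest of its time in all members. Its markers summed to 543 CPM for pericytes (10 of 10 in the table), against 306 to 366 in the other pigs, to 3108 CPM for endothelium (9 of 9), against 1771 to 2856, and to 977 CPM for leukocytes (8 of 9), against 1250 to 1845, and their part was not tested either.

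Because the members are grouped by their shared regulator, the 250 bases before the annotated start of each gene (RefSeq annotation on Sscrofa11.1, the build of the count table) were searched for CArG boxes, of which only those of the 2 smooth muscle actin genes are reported here. The form of this box is its own reverse complement, so that both strands were covered. ACTA2 had 2 boxes with a C or G within the core (125 to 116 and 75 to 66 bases before the start) and ACTG2 had 1 (148 to 139). In windows of 300 bases around the starts of 19559 protein-coding genes, 1.53% held an exact box and 6.73% a box with a C or G in the core. The windows of the other members are not reported here, so these matches cannot be read against those shares. The windows of ACTA2 and ACTG2 are shown because they carry the matches reported, in lower case with the boxes in capitals, read 5′ to 3′ on the strand of the gene.

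ACTA2, chr14:100886733-100886982, minus strand: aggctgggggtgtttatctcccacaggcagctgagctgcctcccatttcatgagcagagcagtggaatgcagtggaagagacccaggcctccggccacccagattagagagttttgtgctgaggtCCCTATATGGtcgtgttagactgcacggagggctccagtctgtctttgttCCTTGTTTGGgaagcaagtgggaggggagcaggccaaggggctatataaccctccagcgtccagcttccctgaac

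ACTG2, chr3:69121543-69121792, minus strand: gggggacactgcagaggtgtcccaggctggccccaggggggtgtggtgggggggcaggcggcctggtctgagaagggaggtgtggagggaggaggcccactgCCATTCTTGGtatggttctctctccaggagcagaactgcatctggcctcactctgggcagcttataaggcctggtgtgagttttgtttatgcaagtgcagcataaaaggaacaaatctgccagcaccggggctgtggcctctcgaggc

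ACTA2 and TAGLN had the highest mean levels per length before perfusion in both groups. On the scale of CPM per kilobase of exon, ACTA2 stood at 356 ± 30.4 in GS at 0h (SD, n = 5), TAGLN at 274 ± 32.3, MYH11 at 132 ± 42.3, ACTG2 at 89.5 ± 36.5, DES at 71.3 ± 19.95 and CNN1 at 61.2 ± 24.0. Below them came MYLK at 38.1 ± 2.06, LMOD1 at 16.6 ± 5.72, SYNPO2 at 14.6 ± 5.87 and MYOCD at 3.32 ± 1.03. Neighbours whose means lay within the sum of their SDs were MYH11 and ACTG2, ACTG2 and DES, DES and CNN1, CNN1 and MYLK, and LMOD1 and SYNPO2. The SDs measure the spread between pigs and ignore that the genes share libraries. The order within a pig was therefore not weighed by this. In PD at 0h the order on the same scale was ACTA2 (406 ± 234, SD, n = 4), TAGLN (279 ± 116), ACTG2 (149.7 ± 70.7), DES (69.7 ± 24.1), MYH11 (51.8 ± 21.8), CNN1 (34.1 ± 19.997), MYLK (21.1 ± 12.3), SYNPO2 (10.5 ± 5.44), LMOD1 (4.49 ± 2.78) and MYOCD (0.458 ± 0.299). Neighbours in this order lay within the sum of their SDs except LMOD1 and MYOCD. Again this sets the means against the spread between pigs only, and does not speak on the order within a pig. The spread between GS pigs before perfusion was small for MYLK, ACTA2 and TAGLN, with coefficients of variation of 5.40%, 8.54% and 11.8%, and reached 58.9% for ACTA2 at 6h. In a bulk biopsy, fewer smooth muscle cells and less RNA per smooth muscle cell cannot be told apart.

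**Figure D1:**
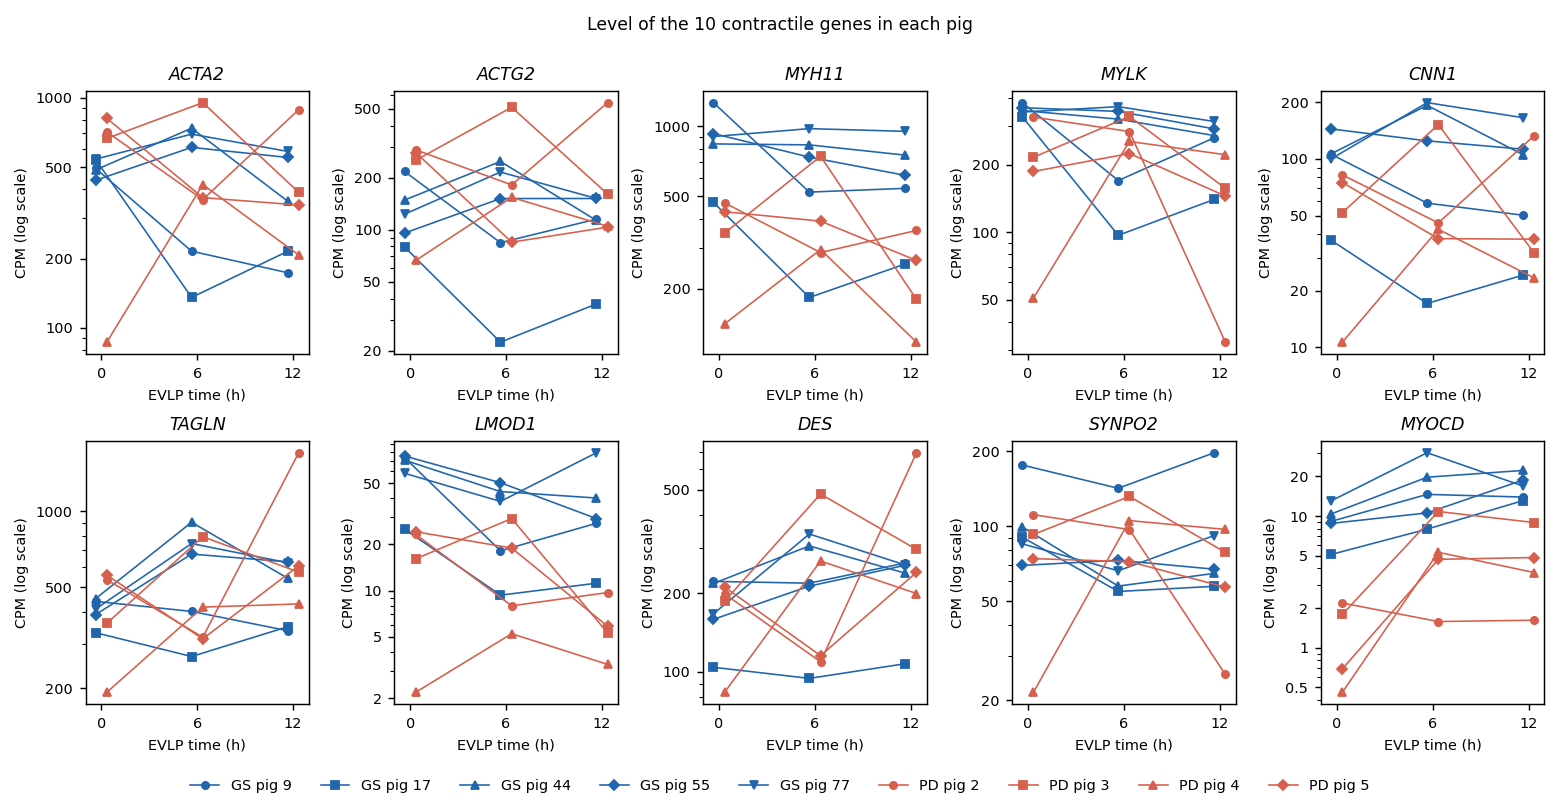
Level of each of the 10 genes (CPM, log scale) at 0h, 6h and 12h of EVLP, with 1 line for each pig (GS blue, PD red, markers for pigs). GS pigs 9 and 17 drop at 6h in most panels, PD pig 4 starts lowest of its group in every panel, and for MYOCD all GS pigs lie above all PD pigs at 0h and at 12h.

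The first question was how GS perfusion moved these genes from their level at 0h. At 6h LMOD1, which encodes leiomodin and seeds actin filaments in smooth muscle, fell by more than 2 fold, and it was the only member called (adjusted p under 0.05 and a fold of at least 2) of 10, against 11.1% of all 18594 genes tested in either direction. At adjusted p alone, MYH11 and SYNPO2 also fell and MYOCD rose, 4 of 10 members against 28.5% of genes. At 12h no member was called, against 15.7% of genes. By edgeR 4 of the 10 had an unadjusted p under 0.05 at 12h, where 9014 of the 18594 genes had one, and 7 of the 10 at 6h, where 7653 genes had one. DESeq2 also called 0 members at 12h. At 12h LMOD1 and MYH11 were lower and MYOCD higher at adjusted p alone, 3 of 10 members against 38.4% of genes. The median log2 fold change over members was −0.29 at 6h and −0.39 at 12h, beside −0.05 and −0.08 over all genes. The sign at 6h was not stable: the median was 0.02 without pig 9, 0.08 without pig 17 and −0.0035 without the block for pig. At 12h it was −0.25 without pig 9, −0.21 without pig 17 and −0.21 without the block. Both comparisons share the 0h libraries.

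Both actins went in opposite directions among the GS pigs and passed no test. ACTA2, the alpha actin of smooth muscle, was at 493, 539, 486, 438 and 541 CPM at 0h in pigs 9, 17, 44, 55 and 77. In the same order it was at 215, 135, 738, 609 and 696 CPM at 6h, and at 174, 215, 356, 551 and 585 CPM at 12h. Pigs 9 and 17 thus lay far below every 0h library at 6h while the other pigs lay above all of them, and the fitted log2 fold change was −0.38 (SE 0.33, adjusted p = 0.409, edgeR) at 6h and −0.69 (SE 0.33, adjusted p = 0.111) at 12h. ACTG2, the gamma actin of visceral smooth muscle, followed the same split, with log2 ratios to 0h of −1.37 and −1.83 in pigs 9 and 17 and of 0.66 to 0.81 in the other 3 pigs at 6h. It was at 217, 79.5, 148, 95.6 and 123 CPM at 0h, at 84.1, 22.4, 248, 151 and 215 CPM at 6h and at 115, 37.2, 113, 152 and 151 CPM at 12h. Its fitted changes were −0.20 (SE 0.36, adjusted p = 0.705, edgeR) and −0.41 (SE 0.35, adjusted p = 0.364).

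MYH11, the smooth muscle myosin heavy chain, was at 1267, 471, 842, 933 and 905 CPM at 0h, at 522, 184, 834, 738 and 979 CPM at 6h and at 542, 256, 753, 616 and 953 CPM at 12h (pigs in the order above). It was lower than at 0h in 4 of 5 pigs at both times, with pig 77 as the exception. The log2 fold change was −0.61 (SE 0.20, adjusted p = 0.0399, edgeR) at 6h and −0.63 (SE 0.20, adjusted p = 0.0263) at 12h, and without the block for pig the adjusted p was 0.507 and 0.370. At 6h the adjusted p was 0.188 without pig 9, 0.166 without pig 17 and 0.0704 without pig 55, and at 12h 0.134, 0.0749 and 0.0778. MYLK, the kinase that phosphorylates the myosin light chain, had log2 fold changes of −0.61 (SE 0.22, adjusted p = 0.0566) and −0.58 (SE 0.22, adjusted p = 0.0515), just outside the threshold. It was at 328 to 379.5 CPM in every GS library at 0h and at 170.4 and 97.0 CPM in pigs 9 and 17 at 6h, against 320.3 to 364 CPM in the other pigs. At 12h it was at 264, 140.4, 271, 289.8 and 313 CPM, in each pig under its own 0h level.

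Among the genes that decorate or build the thin filament, only LMOD1 passed the test. It was at 73.5, 25.1, 70.7, 75.3 and 58.1 CPM at 0h, at 18.2, 9.35, 44.1, 50.4 and 38.1 CPM at 6h and at 27.4, 11.2, 40.1, 29.5 and 79.1 CPM at 12h. It was lower in 5 of 5 pigs at 6h and in 4 of 5 at 12h, where pig 77 was above its start. The log2 fold change was −1.08 (SE 0.27, adjusted p = 0.0107, edgeR) at 6h and −0.89 (SE 0.27, adjusted p = 0.0200) at 12h. The call at 6h was lost without pig 9, at −0.81 (adjusted p = 0.0513), and without pig 17, at −0.99 and just under 2 fold (adjusted p = 0.0398). It was also lost without the block for pig, at −0.94 (adjusted p = 0.237), and in the fit of all 27 libraries, where no member was called in GS at 6h. At 12h the adjusted p was 0.0601 to 0.0737 without pig 9, 17, 44 or 55 and 0.0031 without pig 77. CNN1, the calponin that restrains myosin on actin, was at 106, 37, 107, 144 and 100.2 CPM at 0h, at 58.3, 17.1, 192, 125 and 199 CPM at 6h and at 50.3, 24.2, 105, 113 and 166 CPM at 12h. Pigs 9 and 17 were low and pigs 44 and 77 high at 6h. It had log2 fold changes of −0.10 (SE 0.27, adjusted p = 0.809) and −0.36 (SE 0.27, adjusted p = 0.298). TAGLN, which encodes the actin cross-linker transgelin (SM22), was at 441, 331, 452, 391 and 411 CPM at 0h, at 402, 267, 904, 677 and 745 CPM at 6h and at 337, 349.6, 544, 631 and 626 CPM at 12h. Its log2 fold changes were above 0, 0.43 (SE 0.19, adjusted p = 0.109) and 0.20 (SE 0.19, adjusted p = 0.419), and pigs 44, 55 and 77 stood 0.79 to 1.0 above their start on the log2 scale at 6h.

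DES, the intermediate filament desmin, was at 222, 104, 218, 159 and 167 CPM at 0h, at 219, 94.2, 304, 213 and 338 CPM at 6h and at 262, 107, 239, 256 and 257 CPM at 12h. It was above its 0h level in 3 of 5 pigs at 6h and in 5 of 5 at 12h, with log2 fold changes of 0.34 (SE 0.15, adjusted p = 0.111, edgeR) and 0.30 (SE 0.15, adjusted p = 0.128). SYNPO2, which encodes the actin-binding Z-disc and dense body protein synaptopodin 2, had log2 fold changes of −0.45 (SE 0.15, adjusted p = 0.0420) at 6h and −0.25 (SE 0.15, adjusted p = 0.208) at 12h. It was at 176, 90.4, 99.4, 69.6 and 85 CPM at 0h, at 142, 54.7, 57.5, 73 and 66.2 CPM at 6h and at 198, 57.4, 64.7, 67.2 and 91.8 CPM at 12h. At 6h it was lower in 4 of 5 pigs, and the adjusted p was 0.0727 to 0.181 without pig 9, 17, 44 or 77. It passed in 2 of 12 alternatives, and the adjusted p was 0.0561 with DESeq2 size factors and 0.556 without the block for pig (edgeR). Pig 9 stood above the rest at every time.

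MYOCD, the coactivator, rose. It was at 9.12, 5.11, 10.4, 8.80 and 13.0 CPM at 0h, at 14.6, 7.96, 19.7, 10.6 and 30.3 CPM at 6h and at 13.9, 13.1, 22.2, 18.8 and 16.9 CPM at 12h. It was higher than at 0h in 5 of 5 pigs at both times, and at 12h every library lay above every 0h library, the closest by a narrow margin. The log2 fold change was 0.75 (SE 0.20, adjusted p = 0.0152, edgeR) at 6h and 0.90 (SE 0.20, adjusted p = 0.00431) at 12h. Its range over the 12 alternatives was 0.63 to 0.87 and 0.79 to 1.02, and it passed at adjusted p alone in 9 of them at 6h and in 10 at 12h. At 6h it missed the test without pig 44 (adjusted p = 0.0704), without the block for pig (0.122) and in a fit of all 27 libraries (0.212). At 12h it missed without the block (adjusted p = 0.0871) and in the fit of all libraries (0.0943).

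Most members were lower at 6h than at 0h in GS pigs 9 and 17, whose libraries were the shallower ones of the group. The pigs were set apart by depth after these values had been seen. Pigs 9 and 17 had totals of 26335584 to 41802541 counts, and pigs 44, 55 and 77 had 51708598 to 67522703. At 6h the median log2 ratio to 0h over the 10 members was −1.01 and −1.24 in pigs 9 and 17, with 9 of 10 members lower in each. In pigs 44, 55 and 77 it was 0.54, 0.17 and 0.59, with 4, 4 and 2 members lower. At 12h the medians were −0.72, −0.77, −0.27, 0.14 and 0.34 in the same order. At 6h LMOD1 stood lower in both sets, by a mean log2 ratio of −1.72 in pigs 9 and 17 and −0.62 in the other 3, and so did SYNPO2 (−0.52 and −0.36). MYH11 (−1.32 and −0.08) and MYLK (−1.46 and −0.03) were near 0 in the deeper set. MYOCD stood higher in both (0.66 and 0.80, and 0.98 and 0.85 at 12h), and ACTA2 differed in sign (−1.59 and 0.48). The summed level of the smooth muscle markers that are not members went from 1322 to 869 CPM in pig 9 and from 1353 to 627 in pig 17 between 0h and 6h, and from 1095 to 1215, 1353 to 1291 and 1251 to 1418 in pigs 44, 55 and 77. The sum of markers of fibroblasts and myofibroblasts (9 of 10 in the table) went from 5363 to 3231 CPM in pig 9 and from 4306 to 2845 in pig 17, and from 3100 to 10237, 4607 to 5598 and 4549 to 4492 in pigs 44, 55 and 77. The endothelial sum went from 2891 to 1635 CPM in pig 17 and from 2214 to 2148 in pig 9. Depth, tissue composition and pig move together here, and their part in the result was not tested.

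**Figure D2:**
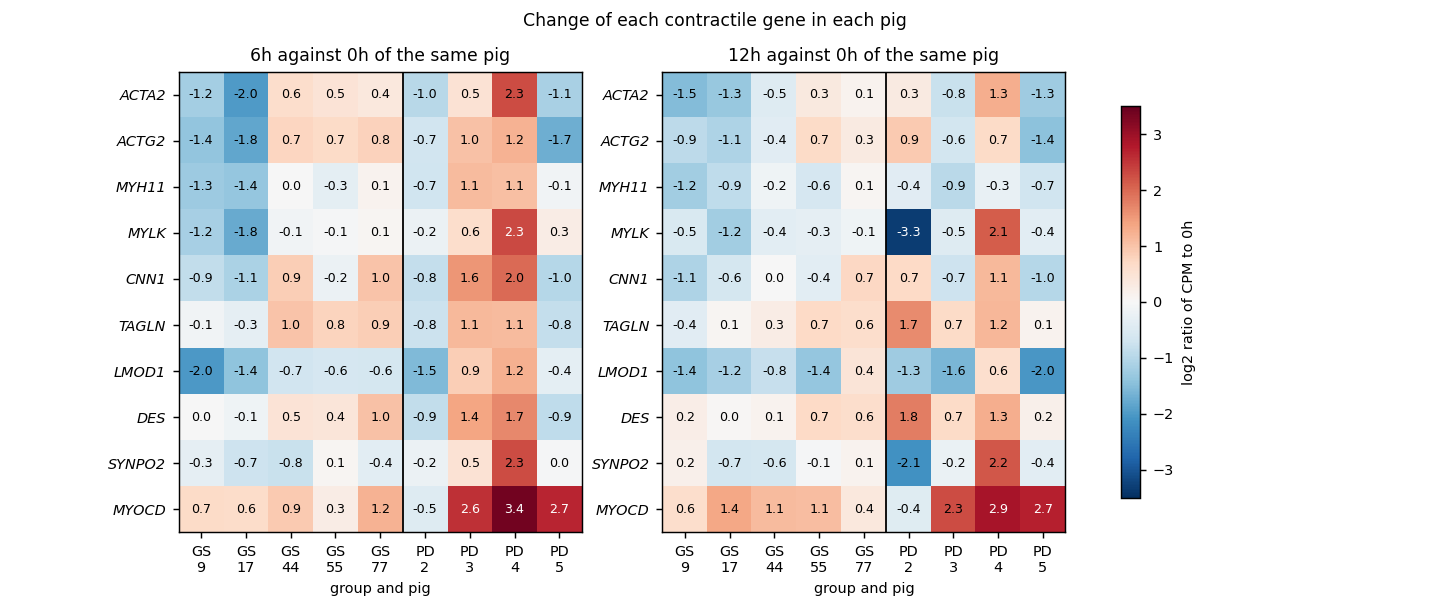
Log2 ratio of CPM at 6h (left) and 12h (right) to the 0h library of the same pig, for each of the 10 genes in the 5 GS and 4 PD pigs. The columns of GS pigs 9 and 17 are negative for 9 of 10 genes at 6h, the column of PD pig 4 is positive for all 10 at 6h, and the MYOCD row is positive in every pig but PD pig 2.

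From 6h to 12h of GS perfusion no member differed by edgeR (0 members called, and 0% of all genes, of which 882 had an unadjusted p under 0.05). None of the 10 members had an unadjusted p under 0.05, and DESeq2 called 0 members and 1 gene in all. The log2 fold changes lay between −0.30 for ACTA2 and 0.20 for SYNPO2, with SE of 0.15 to 0.34.

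PD perfusion was compared in the same way, in 4 pigs whose libraries varied more: the biological coefficient of variation fitted by edgeR was 0.489, against 0.259 in GS. No member was called at 6h, against 0.142% of 15545 genes, nor at 12h, against 5.98% of genes. These shares rest on single pigs: the count over all genes went from 22 to 0 at 6h without pig 3, 4 or 5, and from 930 to 0 at 12h without pig 3 or pig 5 and to 399 without pig 4. Among members MYOCD had the only unadjusted p under 0.05 at each time (edgeR), where 1463 genes at 6h and 3812 at 12h had one. The DESeq2 test called MYOCD at both times. The median log2 fold change over members was 0.43 at 6h, with all 10 values above 0, and −0.17 at 12h, with 4 above and 6 below.

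The 0h library of PD pig 4 held the lowest level of its group for each member, and pig 3 held the highest level at 6h for every member. Leaving out 1 pig moved the median over members at 6h to 0.72 without pig 2, 0.05 without pig 3, 0.06 without pig 4 and 0.67 without pig 5. At 12h it moved to 0.0062, −0.05, −0.40 and 0.32 in the same order. Without the 0h library of pig 4 and the 12h library of pig 2 the medians were −0.0022 and −0.71. ACTA2 in PD pigs 2, 3, 4 and 5 was at 711, 666, 86.5 and 815 CPM at 0h, at 361, 954, 419.6 and 368 CPM at 6h and at 889, 388, 207 and 342 CPM at 12h. Pig 4 started far under the others and was higher later, pigs 2 and 5 were lower at 6h than at 0h, and the log2 fold change was 0.17 (SE 0.57, adjusted p = 0.914, edgeR) at 6h and −0.21 (SE 0.55, adjusted p = 0.849) at 12h. ACTG2 was at 289.6, 252, 66.4 and 279 CPM at 0h, at 182, 510.4, 154 and 84.7 CPM at 6h and at 543, 161, 105 and 103 CPM at 12h, with the highest library in pig 3 at 6h and in pig 2 at 12h. Its log2 fold changes were 0.04 (SE 0.58, adjusted p = 0.984) and −0.13 (SE 0.57, adjusted p = 0.917). With the 0h library of pig 4 and the 12h library of pig 2 left out, 5 of 10 values at 6h were above 0, and at 12h ACTA2 was at −1.23 and ACTG2 at −1.15.

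MYH11 was at 469, 348, 141 and 429 CPM at 0h, at 287, 745, 295 and 391 CPM at 6h and at 357, 180.2, 118 and 265 CPM at 12h. At 12h it was lower than at 0h in 4 of 4 pigs, with a log2 fold change of −0.56 (SE 0.39, adjusted p = 0.417, edgeR), close in size to the −0.63 in GS but with a wider error. MYLK went from 327 to 32.4 CPM at 12h in pig 2, while it went from 50.9 to 222 CPM in pig 4, and the fitted change was −0.45 (SE 0.65, adjusted p = 0.720). SYNPO2 was at 111, 92.7, 21.5 and 74.1 CPM at 0h, at 96.9, 132, 105 and 72.1 CPM at 6h and at 25.4, 78.5, 97.2 and 56.9 CPM at 12h, with the same pair of pigs moving apart at 12h, by log2 ratios of −2.13 in pig 2 and 2.17 in pig 4. Without the 2 libraries that stood apart MYH11 was at −1.04, MYLK at −0.39 and SYNPO2 at −0.30.

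LMOD1 was at 23.2, 16.1, 2.18 and 24.2 CPM at 0h, at 7.97, 29.5, 5.25 and 18.9 CPM at 6h and at 9.71, 5.30, 3.31 and 5.86 CPM at 12h. It was lower at 12h in 3 of 4 pigs, pig 4 being the exception, and the log2 fold change was −1.12 (SE 0.53, adjusted p = 0.221, edgeR). With the same 2 libraries (pig 4 at 0h and pig 2 at 12h) left out, of which the first held its lowest level at 0h and the second its highest at 12h, it was −1.92. CNN1 was at 82.3, 51.9, 10.7 and 75 CPM at 0h, at 45.8, 152, 42.4 and 37.8 CPM at 6h and at 133, 31.7, 23.4 and 37.5 CPM at 12h, again highest in pig 3 at 6h and in pig 2 at 12h. It gave 0.56 (SE 0.61, adjusted p = 0.742) at 6h and 0.04 (SE 0.59, adjusted p = 0.978) at 12h. Without pig 4 at 0h and pig 2 at 12h these were −0.02 and −1.05.

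TAGLN and DES had positive values at 12h in PD. TAGLN was at 536, 361, 193 and 559 CPM at 0h and at 1701, 575, 430.3 and 609 CPM at 12h, higher in 4 of 4 pigs. DES was at 199, 187, 83.3 and 211 CPM at 0h and at 695, 295, 199.7 and 241 CPM at 12h, again higher in 4 of 4. In both, pig 2 was far above the rest at 12h. The log2 fold changes were 0.93 (SE 0.48, adjusted p = 0.263, edgeR) for TAGLN and 1.01 (SE 0.55, adjusted p = 0.284) for DES. Without the 2 libraries that stood apart they were 0.14 and 0.05.

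MYOCD was at 2.18, 1.79, 0.459 and 0.691 CPM at 0h, at 1.58, 10.8, 5.31 and 4.69 CPM at 6h and at 1.62, 8.93, 3.72 and 4.84 CPM at 12h. It was higher than at 0h in 3 of 4 pigs at both times and lower in pig 2, and at 0h it rested on few counts. The log2 fold change was 1.97 (SE 0.66, adjusted p = 0.362, edgeR) at 6h and 1.75 (SE 0.65, adjusted p = 0.129) at 12h. Without pig 2 it was called at both times, at 2.90 (adjusted p = 0.0240, edgeR) and 2.65 (adjusted p = 0.00944). These fits called 98 and 3826 of 15703 genes. Leaving out the only pig in which MYOCD fell raises its fold by construction, so these calls support nothing. Without the 0h library of pig 4 and the 12h library of pig 2 MYOCD was at 1.79 at 6h and 1.81 at 12h. Without pig 3, 4 or 5 the values were 1.51 to 1.69 (adjusted p = 0.685 to 0.952) at 6h and 1.38 to 1.51 (adjusted p = 0.295 to 0.550) at 12h.

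**Figure D3:**
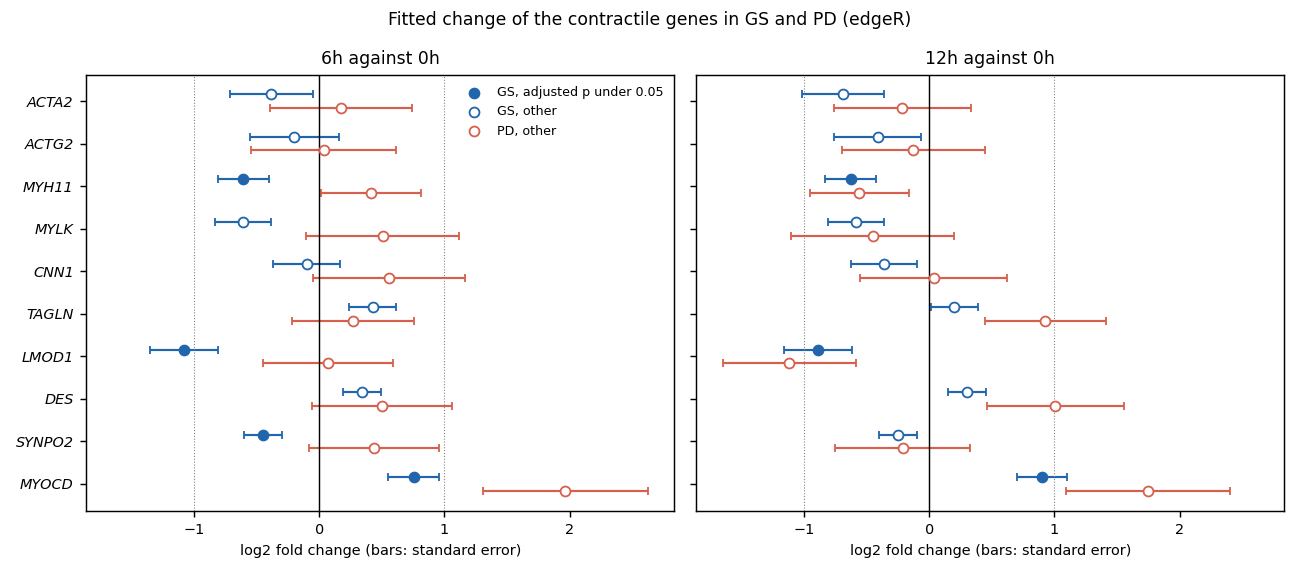
Fitted log2 fold change of each gene at 6h (left) and 12h (right) against 0h in GS (blue) and PD (red), with bars of 1 SE, filled points at adjusted p under 0.05 and dotted lines at 2 fold. Filled points are GS only: LMOD1, MYH11, SYNPO2 and MYOCD at 6h and LMOD1, MYH11 and MYOCD at 12h, and the PD bars are wider for every gene.

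Between 6h and 12h of PD perfusion no member was called, with 0% of all genes called by edgeR (1562 at an unadjusted p under 0.05). DESeq2 called 231 genes, none of them a member. Of the 10 members 2 had an unadjusted p under 0.05, LMOD1 (log2 fold change −1.19, SE 0.53, adjusted p = 0.494) and MYH11 (−0.97, SE 0.41, adjusted p = 0.465).

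Whether dialysis changed the response was tested as the difference between the 2 groups' changes from 0h. No member was called at 6h or at 12h (0% of 17884 genes by edgeR, with 1046 and 1069 genes at an unadjusted p under 0.05). DESeq2 called 7 and 15 genes in all, none of them a member. At 6h 1 of 10 members had an unadjusted p under 0.05, and at 12h none of the 10 did. At 6h the PD change was above the GS change in 9 of 10 members with a median difference of 0.75 on the log2 scale, beside 0.02 over all genes. It ran from −0.17 for TAGLN (SE 0.50) to 1.18 for MYOCD (SE 0.61, adjusted p = 0.783, edgeR), with MYH11 at 1.0 (SE 0.43, adjusted p = 0.783) and LMOD1 at 1.13 (SE 0.58, adjusted p = 0.783). At 12h the median difference was 0.31, and the values lay between −0.28 for LMOD1 (SE 0.58) and 0.81 for MYOCD (SE 0.61). The SE were 0.43 to 0.70. Without the 2 libraries that stood apart the medians were 0.24 and −0.38. Without PD pig 2 alone MYOCD was called at both times, at 2.11 (adjusted p = 0.0337, edgeR) and 1.72 (adjusted p = 0.0496). These fits called 248 and 151 of 18568 genes. PD pig 2 was the only pig in which MYOCD fell. Leaving it out raises the difference by construction, so these calls support nothing.

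The groups already differed before perfusion, when no dialysis had taken place. MYOCD, LMOD1 and MYH11 were called lower in PD than in GS at 0h, 3 of 10 members against 29.1% of 16477 genes, and no member was called higher. The same 3 passed at adjusted p alone, against 40.6% of genes. The log2 difference of MYOCD was −2.81 (SE 0.47, adjusted p = 0.000639, edgeR), that of LMOD1 −1.85 (SE 0.54, adjusted p = 0.0167) and that of MYH11 −1.31 (SE 0.36, adjusted p = 0.0123). All 3 stayed under the threshold of adjusted p in each of the 14 alternatives, but with the trend with exon length removed MYH11 was at −0.96 and under the fold required. Leaving out PD pig 4 and leaving out its 0h library are the same fit here, so the alternatives are not all distinct. The highest PD library was at 2.18 CPM for MYOCD and the lowest GS library at 5.11. For LMOD1 these were 24.2 and 25.1, for MYH11 469 and 471, and for MYLK 327 and 328, so that the groups did not overlap in 4 of 10 members but by a narrow margin in 3 of them. Such a gap, with every PD library under every GS library, was found in 18.1% of genes.

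ACTA2, ACTG2, CNN1, TAGLN, DES and SYNPO2 overlapped between the groups at 0h. Their log2 differences were 0.23 (SE 0.45), 0.78 (SE 0.40), −0.81 (SE 0.49), 0.06 (SE 0.28), 0.00 (SE 0.30) and −0.44 (SE 0.41). Without the 0h library of PD pig 4, the lowest of its group in ACTG2, ACTG2 was called higher in PD at 1.08 (adjusted p = 0.00935, edgeR, and 0.141 with it). Without PD pig 2, the highest in MYLK, MYLK was called lower at −1.18 (adjusted p = 0.0350, edgeR, and 0.110 with it). Leaving out the lowest or the highest library of a group moves its mean by construction, so these calls support nothing.

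The difference at 0h followed exon length across all genes. Over 13772 protein-coding genes with a length, Spearman's rho with the log2 difference was −0.415, given as a description since genes are not replicates. The median was 0.81 for genes under 2 kb and −0.38 for genes of 5 kb and over. Set against the median of 500 genes of like length, MYOCD (2.80 kb) stood at −2.87, LMOD1 (3.66 kb) at −1.77, CNN1 (1.61 kb) at −1.40 and MYH11 (6.70 kb) at −0.91. ACTA2 and TAGLN, at or above 0 as fitted, stood at −0.54 and −0.62 on that scale. A gradient with length ran the other way in the difference of the changes at 6h (rho 0.349). Markers of alveolar epithelium summed to 7545 to 10319 CPM in GS and 27018 to 77778 CPM in PD at 0h, without overlap. That gap can rest on SFTPC alone, which ran from 1687 to 85010 CPM over all libraries. No other gene of the list was above 7939 CPM. Sums of the endothelial and pericyte lists were 2214 to 3211 and 332 to 650.1 CPM in GS, and 1895 to 2147 and 278 to 358 CPM in PD. The pericyte sums overlapped, as did those of the smooth muscle markers that are not members, at 1095 to 1353 CPM in GS and 964 to 1560 in PD. The part of length and of tissue composition in the values at 0h was not tested, and each change from 0h in PD starts from these libraries.

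**Figure D4:**
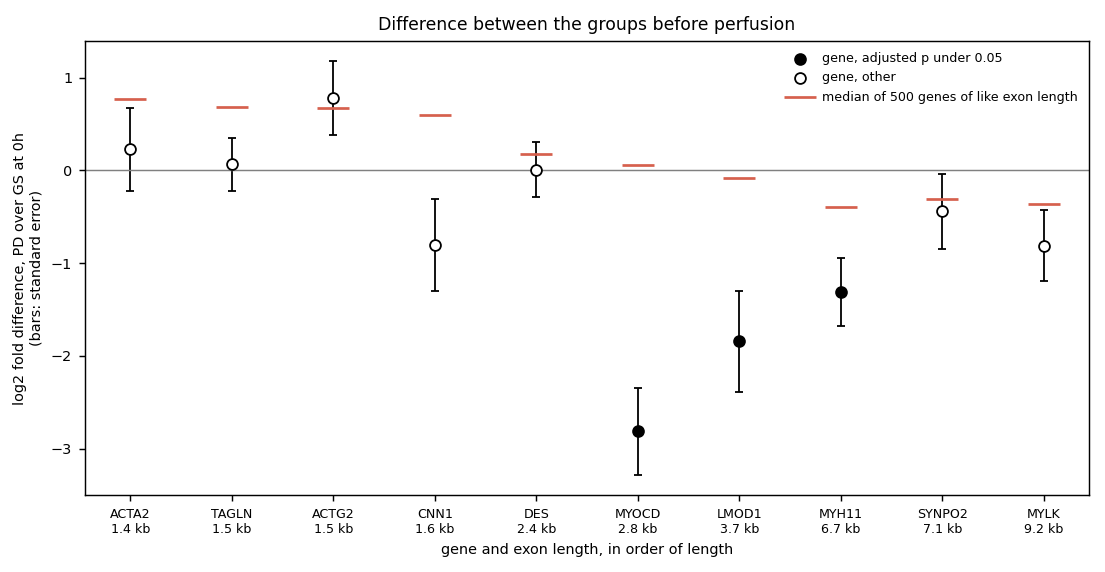
Log2 fold difference of PD over GS at 0h for each gene, in order of exon length, with bars of 1 SE, filled points at adjusted p under 0.05 and a red mark at the median of 500 genes of like length. MYOCD, LMOD1 and MYH11 are the filled points, all below both 0 and the red mark.

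The members did not all vary together. Over the 27 libraries Pearson's r of log2 CPM between pairs of members had a median of 0.476 over 45 pairs, from −0.146 for ACTG2 with MYOCD to 0.951 for MYH11 with LMOD1. TAGLN and DES were at 0.886 and MYH11 and CNN1 at 0.878. After removal of the group and time means the median was 0.638, and 44 of the 45 pairs were above 0. The libraries share pigs, depth and tissue mix, so these are descriptions. Closest to the mean standardised profile of the members, among 14323 genes with a mean of at least 1 CPM, were, of the members, CNN1 (r = 0.944), MYH11 (0.861), ACTA2 (0.806) and LMOD1 (0.796) and, of genes with a symbol that are not members, ANXA6 (0.892), ARPC2 (0.842), TGFB3 (0.832), FNDC1 (0.820), CRELD1 (0.813) and HSPB7 (0.797). ANXA6 encodes a calcium-dependent membrane-binding annexin, ARPC2 a subunit of the actin-nucleating Arp2/3 complex, TGFB3 a transforming growth factor and HSPB7 a small heat shock protein of muscle. SYNPO2 (0.464) and MYOCD (0.560) were the members least like the shared profile.

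Other genes of smooth muscle contraction, 132 in 8 lists, were read beside the members. In GS at 12h 9 of the 131 tested were called higher and 6 lower, with a median log2 fold change of 0.07, against 15.7% of all genes called. In PD at 12h 3 of 130 were called higher and 1 lower, against 5.98% of all genes. None of the lists had a called gene in PD at 6h, where 0.142% of all genes were called. Between the groups at 0h 9 of 130 were called higher in PD and 31 lower, 7 of the latter among the 16 factors around serum response factor, against 29.1% of all genes called (2504 higher and 2288 lower of 16477). These lists, like the members, were drawn up with earlier results of these data known.

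Of the 16 transcription factors and cofactors around serum response factor, such as SRF, MRTFA and the forkhead factor FOXF1, none was called in GS or PD at either time, where 11.1% and 15.7% of all genes were called in GS and 0.142% and 5.98% in PD. At adjusted p alone 2 of 16 were higher and 2 lower in GS at 12h, against 38.4% of all genes. The light chain and phosphatase genes (15, such as MYL9 and ROCK1) and the ion channels and pumps (16, such as KCNMA1 and ATP2A2) had none called either.

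Of 13 thin filament genes tested 2 were called in GS at 12h, against 15.7% of all genes. FLNC, which encodes the actin cross-linker filamin C, rose by 2.00 (SE 0.32, adjusted p = 0.000677, edgeR) and the smoothelin-like gene SMTNL2 fell by 1.77 (SE 0.41, adjusted p = 0.00541). Of 23 dense body and costamere genes 2 were called at the same time, a share under that of all genes: XIRP1, an actin-binding repeat protein, rose by 2.11 (SE 0.42, adjusted p = 0.00209) and ITGA5, the fibronectin receptor subunit, by 1.12 (SE 0.24, adjusted p = 0.00352).

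Of 20 receptors through which smooth muscle is told to contract or relax, 2 were called higher and 5 lower in GS at 12h, where 15.7% of all genes were called. AGTR1, the angiotensin II receptor, rose by 1.34 (SE 0.24, adjusted p = 0.00132, edgeR) and ADRA1B by 1.36 (SE 0.30, adjusted p = 0.00415). The related adrenoceptor ADRA1A fell by 1.67 (SE 0.23, adjusted p = 0.000292) and the leukotriene receptor CYSLTR1 fell by 1.76 (SE 0.31, adjusted p = 0.00107). In PD at 12h, where 5.98% of all genes were called, ADRA1A fell by 2.39 (SE 0.55, adjusted p = 0.0325) and the prostacyclin receptor PTGIR rose by 2.23 (SE 0.45, adjusted p = 0.0247). Both calls were lost without pig 3 and without pig 5, where no gene was called.

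Of 14 genes of the dedifferentiated state 3 were called in GS at 12h, all higher, against 15.7% of all genes in either direction. ICAM1, the leukocyte adhesion molecule, rose by 1.84 in GS (SE 0.31, adjusted p = 0.00078, edgeR) and by 2.59 in PD (SE 0.38, adjusted p = 0.0149) at 12h, and KLF5 rose in GS by 1.24 (SE 0.27, adjusted p = 0.00378). The call of ICAM1 in PD was lost without pig 3 and without pig 5, where no gene was called. ICAM1 is also made by endothelium and other lung cells.

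The genes the results turn on most in Sscrofa11.1 are ACTA2 (ENSSSCG00000010447, chromosome 14, 100867733 to 100886713), LMOD1 (ENSSSCG00000031201, chromosome 10, 24164792 to 24193820), MYH11 (ENSSSCG00000000146, chromosome 3, 7002733 to 7143094) and MYOCD (ENSSSCG00000031988, chromosome 12, 56931317 to 57029538). Stretches of 50 bases shared exactly with the transcripts of another gene made up 0.962% of the MYH11 transcript (with MYH10, MYH9 and MYH14), 0.296% of ACTA2 (with ACTB) and 0.0364% of MYOCD (with MKL2), and none of the other 7 members. Shorter or inexact stretches were not searched, so reads shared with related genes are not excluded. The libraries were directional, but whether the counting used strand is not given in the sources used here, so reads of an overlapping antisense gene cannot be told apart.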

How the data were processed

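RNA of 27 lung biopsies (9 pigs at 3 times) was sequenced as directional poly(A) libraries. Per the submitters' processing notes the authors used bcl2fastq 2.2.18.12, cutadapt 1.15, TopHat2 2.0.14 and featureCounts of Subread 1.6.0 on Sscrofa11.1. They deposited whole-number counts per gene, used here as deposited. The strand and multimapping settings of the counting, and which of 2 RNA extraction routes each sample took, are not given in the sources used here.

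The 10 members and the pathway and marker lists were chosen with earlier results of these data known. Members were matched by symbol, and all are described. Pathway genes were named where they had the 2 smallest adjusted p in a direction at 12h among those called. Counts were tested with edgeR 4.0.16 (R 4.3.3, limma 3.58.1): genes passing filterByExpr, TMM scaling, robust quasi-likelihood F test, Benjamini-Hochberg adjustment over all genes tested. GS and PD were fitted apart with the pig as a block, the difference of their changes in 1 fit of all libraries, and 0h without a block. A call needed an adjusted p under 0.05 and a fold of at least 2. Log2 CPM used a prior count of 2. Each pig is a separate animal, and the labels tie its 3 libraries together. The residuals of libraries of the same pig correlated with a mean of 0.526 in GS (0.342 to 0.740) and 0.109 in PD (−0.283 to 0.488), against −0.119 and −0.0322 between pigs.

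Totals of 14650700 to 67522703 counts set the precision, and no 2 libraries agreed within sampling noise. Alternatives were DESeq2 1.42.0, DESeq2 size factors, no filter, other fits, each pig left out, and, added after the data were seen, removal of the exon length trend and of 2 PD libraries. The scripts were tested on simulated data. Promoter windows and exon lengths came from the RefSeq annotation of Sscrofa11.1. Some results of the pathway lists and promoter windows are not reported here.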

Additional observations from a re-analysis of the deposited data

Results flagged for a closer look

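Each group of 4 or 5 libraries at a time was searched for a library whose gap to its nearest neighbour, over the range of the group, exceeded Dixon's 95% value. Chance marks about 1 in 20 groups, and 60 groups (10 genes, 2 groups, 3 times) were searched, of which 11 were marked.

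Among PD libraries, pig 3 at 6h was far above the others of its time in ACTA2 (954 CPM) and CNN1 (152 CPM). Pig 2 at 12h was far above the others in ACTG2 (543 CPM), CNN1 (133 CPM) and TAGLN (1701 CPM). At 0h ACTG2 was far lower in pig 4 (66.4 CPM) than in the other 3 pigs.

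Among GS libraries, SYNPO2 was far higher in pig 9 than in the others at 0h (176 CPM), 6h (142 CPM) and 12h (198 CPM). At 12h pig 17 was far under the others in DES (107 CPM) and MYLK (140.4 CPM).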

How the results depend on the processing

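The calls of members at 0h held best: LMOD1, MYH11 and MYOCD kept an adjusted p under 0.05 in 14 of 14 alternatives each. Leaving out PD pig 4 and leaving out the 2 PD libraries are the same fit at 0h, so these alternatives are not all distinct. There were 3 to 4 members called when a pig was left out and 2 with the exon length trend removed, where MYH11 was under 2 fold. With adjusted p alone 4 members passed in GS at 6h and 3 at 12h. Without the replicate block for pig the number called in GS at 6h was 0, and the count over all genes went from 2057 to 1123. No paired fit was possible at 0h because the groups hold different pigs. In 1 fit of all 27 libraries 0 members were called in GS at 6h and 1 (MYOCD) in PD at 6h and at 12h, as with DESeq2 in PD at both times. With the PD pig 2 library at 12h and the PD pig 4 library at 0h left out, 3 members were called in PD at 12h against 0h (ACTA2 and LMOD1 lower, MYOCD higher) and 2 against 6h (LMOD1 and MYH11 lower), while the calls over all genes went from 930 and 0 to 3296 and 669 of 15651. Both libraries were picked by the levels of these members, so the lower calls follow in part from that choice and support nothing. Leaving out each pig gave 0 to 1 in GS at 6h (0 without pig 9 or 17) and 0 to 2 in GS at 12h (1 without pig 9, 2 without pig 77). It gave 0 to 1 in PD at 6h and 12h and in both differences of the changes, where the 1 was MYOCD without PD pig 2. MYOCD fell in that pig alone, so leaving it out raises the PD change by construction. Over all genes the count called in PD at 12h was 930, with 4 when only the 2 times were fitted, 2560 by DESeq2, 1460 without the block, 3826 without pig 2, 399 without pig 4 and 0 without pig 3 or pig 5. In PD at 6h it was 22, with 428 by DESeq2, 98 without pig 2 and 0 without pig 3, 4 or 5. An exact Wilcoxon rank-sum test of the differences of the changes called 0 members, but 5 against 4 pigs give it little room after adjustment over all genes. The causes were not tested.

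Of the 10 single fold changes that passed adjusted p, 87 of 126 values under alternatives passed as well, 39 did not, and none changed sign. Of the 80 that missed, 20 of 1054 values passed and 107 changed sign without a test passed. LMOD1 in GS at 6h ranged from −1.23 to −0.81 and passed in 9 of 12 alternatives, and MYOCD in GS at 12h from 0.79 to 1.02 and in 10 of 12. MYH11 in GS passed in 4 of 12 at 6h and 5 of 12 at 12h. LMOD1 in GS at 12h passed in 6 of 12, and SYNPO2 in GS at 6h in 2 of 12. PD libraries were shallower than all GS libraries, and MYOCD in PD at 0h rested on the fewest counts.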
